A study of Mus musculus with 10 samples.

Results

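The genes described here are those of the corticotropin-releasing hormone (CRH) and urocortin stress peptides, with the related peptide PACAP: 8 genes, Crh, Ucn, Ucn3, Adcyap1, Crhbp, Crhr1, Crhr2 and Adcyap1r1, of 22103 named on the array. They were chosen by gene symbol, and they are represented by 103 of the 1256831 probe sets, each annotated to exactly 1 of these symbols. RNA of amygdalae cut from coronal slices of 3-month-old mice was hybridised to exon arrays, whose probe sets each cover an exon or a piece of one. There were 5 arrays of wild-type C57BL/6 mice and 5 of neuropsin-/- mice, which lack the serine protease encoded by Klk8 and were backcrossed to C57BL/6 for 12 generations. Brains came from 15 mice of each genotype and RNA of 3 mice went onto an array, so each array was read as a separate pool. The labels do not give the sex of the animals or the deleted exons, and no stressor or drug is named. The study compares the genotypes to ask how expression in the amygdala differs without neuropsin.

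CRH is the hypothalamic peptide that releases corticotropin from the pituitary and thereby drives corticosteroid secretion, and it is also a transmitter of neurons in the central amygdala. CRH and urocortin act on the receptor CRHR1, while the urocortins also act on CRHR2, and urocortin 3 is selective for CRHR2. PACAP, encoded by Adcyap1, acts on the receptor PAC1, encoded by Adcyap1r1, among others. All 3 receptors belong to class B of the G protein-coupled receptors and raise cyclic AMP (cAMP), and each peptide has been tied to anxiety and stress responses that run through the amygdala.

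Because these receptors signal through cAMP, the bases before the start sites were searched for the cAMP response element, TGACGTCA, and its core, TGACG, which the full element contains, on both strands. The search also covered the TATA box, TATAAA, and the palindromic glucocorticoid response element. RefSeq promoter windows (build GRCm38.p6) were matched for 7 of the 8 genes, and the 250 bases before the start were used. Crh had no window there, so its promoter was not searched. The 3 windows below belong to Ucn, Ucn3 and Adcyap1. Among the genes searched only Ucn had a full element, and its group means matched closely. Ucn3 and Adcyap1 were low and high on many of the same arrays. Capitals mark the matches.
Ucn (chr5:31138896-31139145, minus strand): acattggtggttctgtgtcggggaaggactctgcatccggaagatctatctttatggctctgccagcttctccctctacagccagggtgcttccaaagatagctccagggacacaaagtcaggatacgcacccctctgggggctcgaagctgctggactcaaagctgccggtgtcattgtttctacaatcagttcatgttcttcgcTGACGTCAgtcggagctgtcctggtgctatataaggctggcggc
Ucn3 (chr13:3945350-3945599, minus strand): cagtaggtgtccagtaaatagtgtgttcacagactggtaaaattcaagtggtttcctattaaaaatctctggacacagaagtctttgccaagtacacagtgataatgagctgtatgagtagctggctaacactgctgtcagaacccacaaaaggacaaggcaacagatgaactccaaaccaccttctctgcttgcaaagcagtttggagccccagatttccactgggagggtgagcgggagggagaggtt
Adcyap1 (chr17:93198918-93199167, plus strand): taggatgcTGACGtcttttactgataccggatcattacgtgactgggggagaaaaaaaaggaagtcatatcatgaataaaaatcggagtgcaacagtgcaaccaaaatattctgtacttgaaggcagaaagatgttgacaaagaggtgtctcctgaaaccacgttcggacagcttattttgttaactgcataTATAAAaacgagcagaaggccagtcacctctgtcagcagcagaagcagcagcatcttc
The full element of Ucn begins 44 bases before the start and contains both core matches of that window. It occurs in 1.55% of the 32851 windows of this length, the core in 17.8% and TATAAA in 12.4%. In the Adcyap1 window, 1 of 2 for that gene and the one with a TATA box, TGACG begins 242 bases and TATAAA 58 bases before the start, and the Ucn3 window held none of the 4 motifs. Of the other windows, the second of Adcyap1 held this same core 91 bases before its own start. That of Crhbp held the core 64 bases and that of Crhr2 a TATAAA 39 bases before the start. The glucocorticoid element was in none of the 8 windows of these genes and in 0.00913% of all windows. A match describes the letters of the window and does not show that a factor binds there.

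Values are log2 expression as deposited, so a difference of 1 is a doubling. Only probe sets averaging above 4.94, the midpoint of the table's probe sets, were tested, and 88 of the 103 did so. A gene level is the mean of at least 3 such probe sets, which gave a level to 7 of the 8 genes; Crh had only 1. Differences are knockout minus wild type with the standard error (SE) of the limma fit, and adjusted p-values are Benjamini-Hochberg values over all 16367 genes or 628415 probe sets. Wild-type arrays 4 and 5 stood apart, at 20.5 and 23.5 on the leading principal component (35.5% of the variance between arrays) against -14.2 to 7.45 on the other 8 arrays. The targeted gene Klk8 averaged 6.22 ± 0.28 (SD, n = 5) on wild-type and 5.83 ± 0.28 on knockout arrays, a difference of -0.39 (SE 0.15, limma adjusted p = 0.693); probe sets outside the deleted part check nothing. Gene levels were obtained for 18 of 18 marker genes of the central and medial amygdala and 17 of 18 of the lateral and basolateral amygdala, but also for 8 of 8 of the choroid plexus, 18 of 22 of the hypothalamus and 14 of 16 of the striatum, so the filter does not identify the tissue.

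No gene of the system passed the test between the genotypes. By limma 0 of the 7 gene levels and 0 of the 88 probe sets passed at an adjusted p of 0.05, where 0.0244% of all genes and 0.00239% of all probe sets did. By direction these shares of all genes were 0.0183% lower and 0.00611% higher in the knockout. At an unadjusted p under 0.05 there was 1 of the 7 genes, which was lower, against 6.98% of all genes (4.14% lower and 2.84% higher). Of the 88 probe sets 7 had such a p (7.95%), 5 lower and 2 higher, against 5.97% of all probe sets (2.64% lower and 3.33% higher). The peptide genes Ucn3 and Adcyap1 had lower means in the knockout, the binding protein gene Crhbp a higher one, and the 3 receptor genes differed by at most 0.04. Crh was lower at its only tested probe set, while the mean of all 3 Crh probe sets differed by -0.02. Over the 7 genes the median difference was -0.03, and over all genes it was -0.002. In all 7 the range of the knockout arrays overlapped that of the wild-type arrays, whereas 1.55% of all genes had no overlap, 0.623% with the knockout lower.

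**Figure D1:**
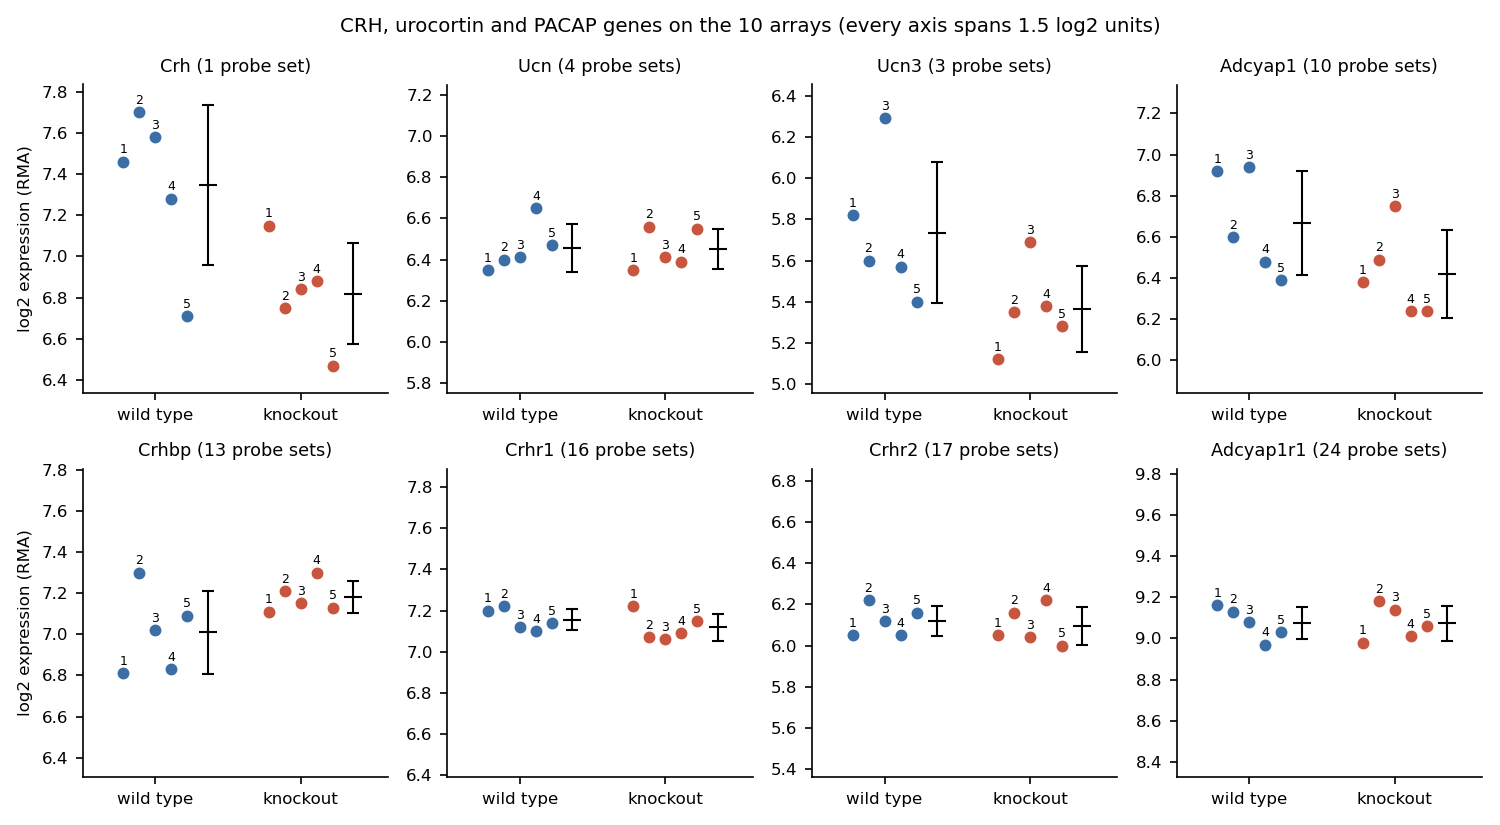
Log2 expression (vertical axes) of the 8 genes on each array, wild type in blue and knockout in red, with replicate numbers at the points and mean ± SD (n = 5) in black; Crh is its 1 probe set above the filter, the others are gene levels. Ucn3 spans 5.40 to 6.29 on wild-type and 5.12 to 5.69 on knockout arrays, while Adcyap1r1 lies between 8.97 and 9.18 in both.

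Crh, which encodes CRH itself, was measured by 3 probe sets that did not behave alike. Probe set 5189420 was the only one above the filter. It read 7.46, 7.70, 7.58, 7.28 and 6.71 on wild-type arrays 1 to 5 and 7.15, 6.75, 6.84, 6.88 and 6.47 on the knockout arrays. Wild-type arrays 1 to 4 lay above all knockout arrays, and array 5 lay among them. The means were 7.34 ± 0.39 and 6.82 ± 0.25 (SD, n = 5 each), a difference of -0.53 (SE 0.20), or 1.44-fold, with a 95% interval of -0.97 to -0.09 and a limma adjusted p of 0.82. Without wild-type arrays 4 and 5 the difference was -0.76 (adjusted p = 0.669). The other 2 probe sets were dim. Probe set 5184094 averaged 4.17 ± 0.66 in wild type, with 3.09 on array 5, and 4.66 ± 0.24 in the knockout, a difference of 0.50 in the opposite direction. Probe set 5242862 was at 4.18 ± 0.26 and 4.15 ± 0.26. The mean of all 3 was therefore 5.23 ± 0.31 on wild-type and 5.21 ± 0.11 on knockout arrays, a difference of -0.02 (exact permutation p = 0.929, two-sided). Leaving out wild-type arrays 4 and 5, which stood apart in these same data, made this difference -0.19 (exact permutation p = 0.0357). That p was unadjusted and the smallest of 16 alternatives tried for this difference.

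**Figure D2:**
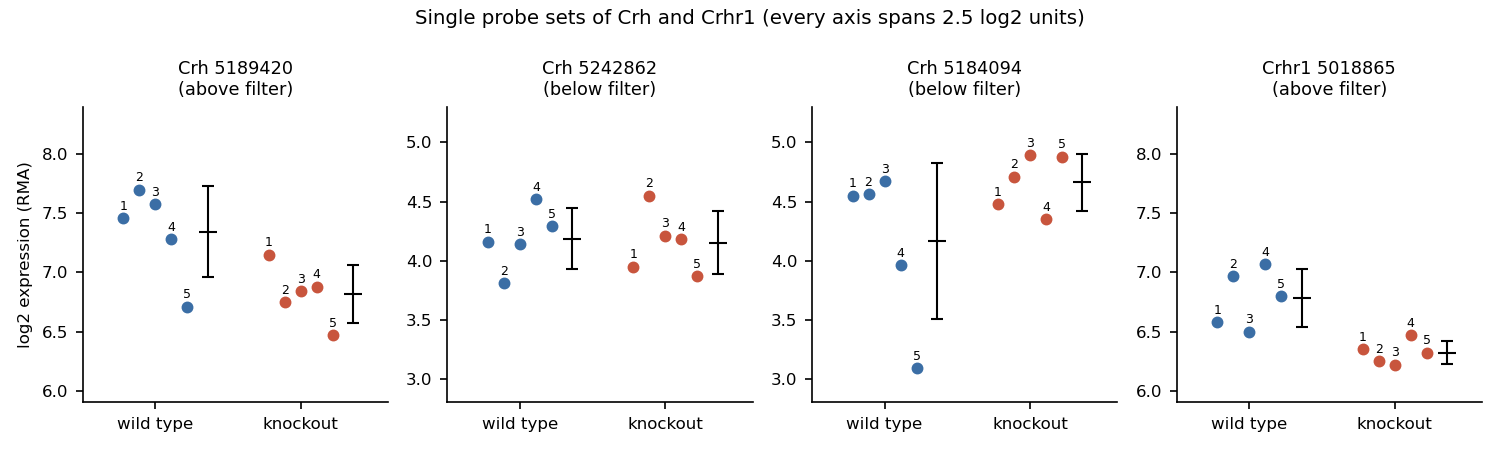
Log2 expression (vertical axes) at the 3 Crh probe sets and at Crhr1 probe set 5018865 on each array, with replicate numbers and mean ± SD (n = 5). The difference of -0.53 at Crh probe set 5189420 faces one of 0.50 at the dim probe set 5184094, and all knockout points of the Crhr1 probe set lie under all wild-type points.

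Ucn encodes urocortin, a peptide best known from the Edinger-Westphal nucleus of the midbrain. Its gene level over 4 probe sets was 6.35, 6.40, 6.41, 6.65 and 6.47 in wild type and 6.35, 6.56, 6.41, 6.39 and 6.55 in the knockout. The groups covered nearly the same range, with means of 6.46 ± 0.12 and 6.45 ± 0.10 and a difference of 0.00 (SE 0.08; 95% interval -0.18 to 0.17; limma adjusted p = 0.995). The probe sets were split, 2 lower by 0.17 and 0.31 and 2 higher by 0.22 and 0.24 in the knockout. With the median over the 4 probe sets the difference was 0.18 (exact permutation p = 0.0397, two-sided; limma adjusted p = 0.875), so its size depended on how the probe sets were combined. That permutation p was unadjusted and the smallest of 16 alternatives tried for Ucn.

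Ucn3, the gene of the CRHR2-selective peptide made in the medial amygdala and hypothalamus, had the largest difference of the 7 gene levels. It read 5.82, 5.60, 6.29, 5.57 and 5.40 on the wild-type arrays and 5.12, 5.35, 5.69, 5.38 and 5.28 on the knockout arrays. Array 3 was the highest in each genotype, and 4 of the 5 knockout arrays lay under the lowest wild-type array. The means were 5.73 ± 0.34 and 5.36 ± 0.21 (SD, n = 5 each), a difference of -0.37 (SE 0.15), or 1.29-fold, with a 95% interval of -0.69 to -0.05. Its unadjusted p of 0.025 became 0.693 after adjustment over all genes (limma). All 3 probe sets above the filter were lower in the knockout, by 0.34 to 0.39, and the 3 dim ones differed by -0.50, 0.03 and 0.26. Over all 6 probe sets the difference was -0.22 (exact permutation p = 0.0556, two-sided). The gene level difference of Ucn3 was -0.23 without wild-type array 3 (adjusted p = 0.486) and -0.54 without wild-type arrays 4 and 5 (adjusted p = 0.269).

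Adcyap1, the PACAP gene, is transcribed in excitatory neurons of the amygdala and hypothalamus among others. Its gene level over 10 probe sets was 6.92, 6.60, 6.94, 6.48 and 6.39 in wild type and 6.38, 6.49, 6.75, 6.24 and 6.24 in the knockout. Arrays 4 and 5 were the lowest and array 3 the highest of each genotype, so arrays that were high for Adcyap1 were largely those high for Ucn3. The means were 6.67 ± 0.25 and 6.42 ± 0.21, a difference of -0.25 (SE 0.13; 95% interval -0.52 to 0.03; limma adjusted p = 0.721). Of the 10 probe sets 9 had a lower mean in the knockout, where 49.7% of all tested probe sets did, and their differences ran from -0.52 to 0.11. Probe set 4320965, of smallest p, read 7.10 to 7.45 on wild-type and 5.99 to 7.14 on knockout arrays, a difference of -0.52 (SE 0.21, limma adjusted p = 0.824). Without knockout array 5, which read 5.99, it was -0.34 (adjusted p = 0.889). Without wild-type arrays 4 and 5 the gene level difference of Adcyap1 was -0.40 (adjusted p = 0.288).

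These arrays hold dissected tissue, in which fewer cells of a type and less RNA per cell cannot be told apart. Marker genes of the hypothalamus were read beside Ucn3, Adcyap1 and the tested Crh probe set. They were lower in the knockout in 16 of the 18 measured (22 listed), against 50.7% of all genes. Their mean, centred over the 10 arrays, was 0.07 to 0.26 on wild-type and -0.27 to -0.05 on knockout arrays, with no overlap, and the median difference was -0.22. None of the 18 passed; Pmch, the melanin-concentrating hormone gene, differed by -1.88 (SE 0.39, limma adjusted p = 0.27) and Oxt, the oxytocin gene, by -0.63 (SE 0.16, adjusted p = 0.446). Pmch read 7.59, 7.19, 7.40, 5.41 and 5.35 on the wild-type arrays, where arrays 4 and 5 were the lowest, and 4.34 to 4.93 on the knockout arrays. The lack of overlap in the marker mean depends on this gene. It read 7.40 on wild-type array 3 and 4.82 on knockout array 2, where the marker mean was 0.07 and -0.05. Hcrt, Nkx2-1, Kiss1 and Gal had no gene level, and Lhx6 is also in the list of interneuron markers used below. Markers of the central and medial amygdala, where CRH neurons lie, had lower means in the knockout in 14 of 18 and a median difference of -0.12; their centred mean was -0.14 to 0.23 on wild-type and -0.15 to -0.02 on knockout arrays. In that list Dlk1 differed by -0.25 (SE 0.09) and the transcription factor gene Zic1 by -0.22 (SE 0.08), both at an adjusted p of 0.693. Markers of the lateral and basolateral amygdala were higher in 13 of 17, with a median of 0.16, among them Cdh13 at 0.29 (SE 0.08, adjusted p = 0.579) and the vesicular glutamate transporter gene Slc17a7 at 0.24 (SE 0.09, adjusted p = 0.693). Knockout arrays 3 and 1 were the lowest of all arrays for the hypothalamus markers, at -0.27 and -0.24. Array 3 was the highest knockout array for Ucn3 and Adcyap1, and array 1 had the lowest Ucn3 level of the 10 arrays. The part of these differences in tissue markers in the values of Crh, Ucn3 and Adcyap1 was not tested.

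**Figure D3:**
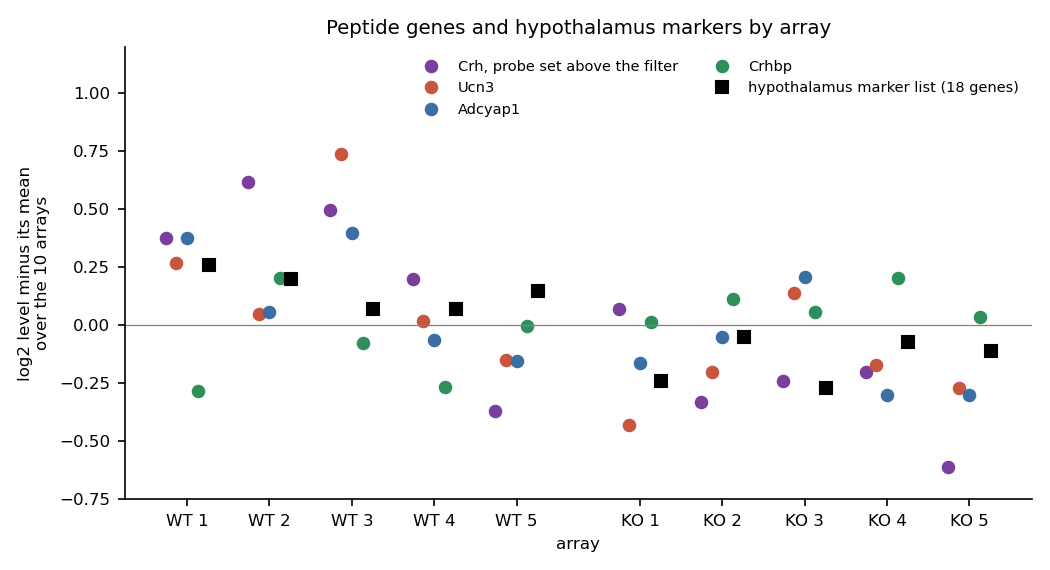
Log2 level minus its mean over the 10 arrays (vertical axis) of Crh probe set 5189420, Ucn3, Adcyap1 and Crhbp, and the mean of 18 hypothalamus markers, on each wild-type (WT) and knockout (KO) array. The marker mean lies at 0.07 to 0.26 on the wild-type and -0.27 to -0.05 on the knockout arrays. It averages 18 genes, and its lack of overlap depends on Pmch (difference -1.88). The other series are single genes and overlap between genotypes.

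Crhbp encodes the secreted protein that binds CRH and urocortin and keeps them from their receptors; in the forebrain it is made largely by inhibitory neurons. Its gene level over 13 probe sets was 6.81, 7.30, 7.02, 6.83 and 7.09 in wild type and 7.11, 7.21, 7.15, 7.30 and 7.13 in the knockout. The knockout arrays lay close together within the upper part of the wild-type range. The means were 7.01 ± 0.20 and 7.18 ± 0.08, a difference of 0.17 (SE 0.10; 95% interval -0.03 to 0.38; limma adjusted p = 0.735). Without wild-type arrays 4 and 5 it was 0.14 (adjusted p = 0.651). Of the 13 probe sets 10 had a higher mean in the knockout. Probe set 4848165, of smallest p, was at 7.97 ± 0.44 and 8.46 ± 0.26, a difference of 0.49 (SE 0.22, adjusted p = 0.835). The 4 Crhbp probe sets below the filter differed by -0.52 to 0.41. Markers of cortical and other interneurons had lower means in 8 of 13, a median difference of -0.06 and centred means of -0.14 to 0.11 on wild-type and -0.06 to 0.01 on knockout arrays; the interneuron gene Pvalb differed by -0.32 (SE 0.14) and Cck, a peptide gene of interneurons and pyramidal cells, by 0.21 (SE 0.07), both at an adjusted p of 0.693. Their part in the Crhbp value was not tested.

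Crhr1, the receptor for CRH and urocortin, had a gene level of 7.20, 7.22, 7.12, 7.10 and 7.14 in wild type and 7.22, 7.07, 7.06, 7.09 and 7.15 in the knockout. The difference over its 16 probe sets was -0.04 (SE 0.07; 95% interval -0.18 to 0.11; limma adjusted p = 0.926). A single probe set of Crhr1, number 5018865, had no overlap between the genotypes. It read 6.58, 6.97, 6.50, 7.07 and 6.80 in wild type and 6.35, 6.25, 6.22, 6.47 and 6.32 in the knockout. The difference was -0.47 (SE 0.15), or 1.38-fold, with a limma adjusted p of 0.796, and -0.36 without wild-type arrays 4 and 5 (adjusted p = 0.795). It was the only one of the 88 tested probe sets of the system without overlap, where 1.1% of all tested probe sets had none. The other 15 Crhr1 probe sets lay on both sides of 0, up to 0.47 at probe set 5515230 (SE 0.24, adjusted p = 0.851).

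Crhr2, the receptor shared by the urocortins, had a gene level of 6.05, 6.22, 6.12, 6.05 and 6.16 in wild type and 6.05, 6.16, 6.04, 6.22 and 6.00 in the knockout. The difference over 17 probe sets was -0.03 (SE 0.07; 95% interval -0.18 to 0.13; limma adjusted p = 0.951). Of its 22 probe sets 5 were below the filter, and all 5 of these had a lower mean in the knockout, by 0.07 to 0.58, so over all 22 the difference was -0.11 (exact permutation p = 0.167, two-sided); it was -0.06 without knockout array 5 (exact permutation p = 0.341). The tested probe sets ran from -0.69 to 0.53. Probe set 5032032 was higher in the knockout by 0.41 (SE 0.17, adjusted p = 0.828) and probe set 5214517 lower by 0.31 (SE 0.14, adjusted p = 0.837). Choroid plexus markers varied strongly between arrays of one genotype, with centred means of -0.62 to 0.76 on wild-type and -0.87 to 0.72 on knockout arrays, and all 8 were lower in the knockout; their part in the Crhr2 values was not tested.

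Adcyap1r1, the PAC1 receptor gene, had 24 of 24 probe sets above the filter. Its gene level was 9.16, 9.13, 9.08, 8.97 and 9.03 in wild type and 8.98, 9.18, 9.14, 9.01 and 9.06 in the knockout. The groups covered the same range, at 9.07 ± 0.07 and 9.07 ± 0.08, with a difference of 0.00 (SE 0.07; 95% interval -0.15 to 0.15; limma adjusted p = 0.999). Its probe sets were divided evenly, 12 lower and 12 higher in the knockout, within -0.24 to 0.21.

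**Figure D4:**
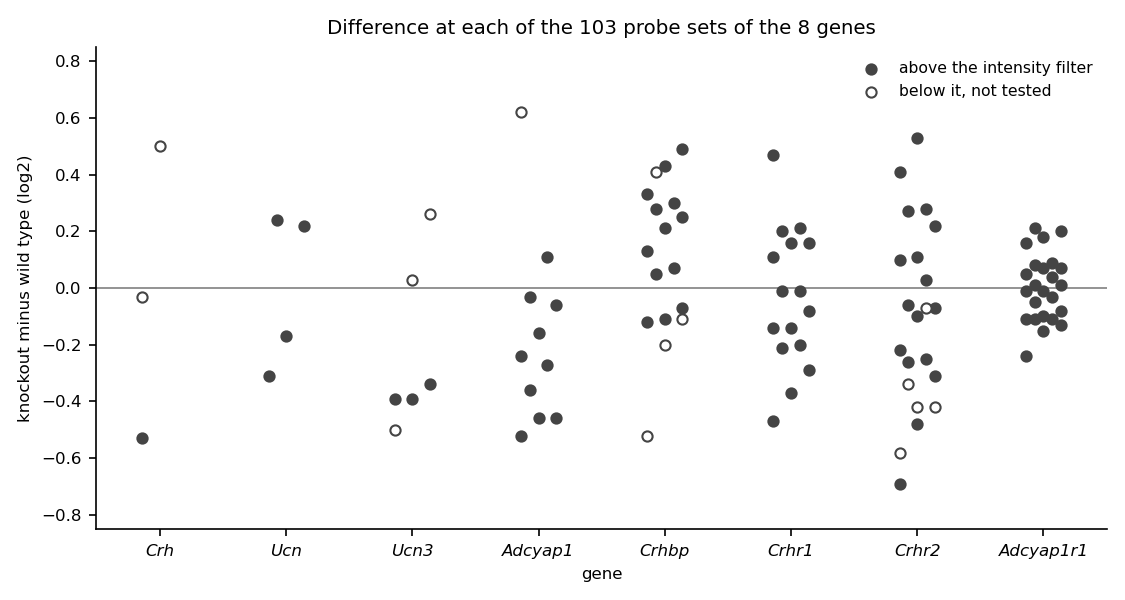
Difference between knockout and wild-type means (vertical axis, log2) at each of the 103 probe sets, by gene; filled points were above the intensity filter and open points below it. Filled points of Adcyap1 lie mostly under 0 and those of Crhbp mostly above it, while those of Adcyap1r1 stay within -0.24 to 0.21.

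The wider pathway was read from gene lists chosen from textbook knowledge, but with earlier results of these data known. No gene of these lists passed (limma), and the 3 of smallest p in each are given as values. Among related class B peptides and receptors 24 of 28 were measured, 17 lower and 7 higher in the knockout, with a median of -0.09. Of the 24, 1 had an unadjusted p under 0.05, against 6.98% of all genes. The glucagon-like peptide receptor gene Glp1r differed by -0.15 (SE 0.07, adjusted p = 0.711), the incretin receptor gene Gipr by -0.16 (SE 0.08) and the parathyroid hormone receptor gene Pth2r by 0.16 (SE 0.08), the last 2 at an adjusted p of 0.718. Ucn2, the remaining urocortin gene, had no gene level.

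Downstream of the receptors, 44 of 45 genes of G protein and cAMP signalling were measured, 17 lower and 27 higher in the knockout, with a median of 0.02. Of the 44, 2 had an unadjusted p under 0.05, against 6.98% of all genes. The adenylyl cyclase gene Adcy6 differed by 0.16 (SE 0.07, adjusted p = 0.693), the receptor kinase gene Grk3 by 0.24 (SE 0.10, adjusted p = 0.699) and the CREB coactivator gene Crtc3 by -0.12 (SE 0.07, adjusted p = 0.735). Of 14 genes for peptide processing and secretion 3 were lower and 11 higher, with a median of 0.03. The proSAAS gene Pcsk1n differed by -0.21 (SE 0.09, adjusted p = 0.693), the prohormone convertase gene Pcsk2 by 0.27 (SE 0.13, adjusted p = 0.718) and Qpct, which forms pyroglutamate ends on peptides, by -0.16 (SE 0.09, adjusted p = 0.726).

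Of the genes of the pituitary-adrenal axis and corticosteroid response 14 of 16 were measured, 8 lower and 6 higher in the knockout, with a median of -0.03. Unadjusted p-values under 0.05 numbered 4 of the 14, 2 lower and 2 higher, where 6.98% of all genes had one (4.14% lower and 2.84% higher). Fkbp5, whose protein restrains the glucocorticoid receptor, averaged 7.40 ± 0.18 on wild-type and 7.84 ± 0.31 on knockout arrays, a difference of 0.43 (SE 0.14, adjusted p = 0.63). Per1, a clock gene that glucocorticoids induce, was at 7.75 ± 0.09 and 7.99 ± 0.10, a difference of 0.23 (SE 0.07, adjusted p = 0.644). Avp, the vasopressin gene, whose peptide acts with CRH on the pituitary, was at 6.91 ± 0.61 and 6.23 ± 0.17, a difference of -0.68 (SE 0.22, adjusted p = 0.679).

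The genes whose levels followed each of the 7 most closely over the 10 arrays were found after subtracting genotype means, as a description among 16367 genes. For Ucn3 these were Ago1 (Pearson r = 0.973), Slc24a3 (0.95) and Ccdc174 (0.946), and for Adcyap1 they were Gpr165 (0.968), Commd6 (0.967) and 2900092D14Rik (0.963). For Crhbp they were Stk36 (0.967), C2cd2l (0.95) and Vps9d1 (0.947), and for Ucn P2rx2 (0.915), Myo1a (0.907) and Stac3 (0.907). Crhr1 was followed by Lhpp (0.922), Scamp3 (0.921) and Mob3b (0.903), Crhr2 by Pkd1l3 (0.98), 4921524J17Rik (0.947) and Lhx2 (0.927), and Adcyap1r1 by Fam104a (0.965), Nol9 (0.961) and Ttc39c (0.959). None of the 7 was among these, and Crh, which had no gene level, could not be. Between the 7 themselves the highest coefficients were 0.84 for Crhbp with Crhr2 and 0.82 for Ucn3 with Adcyap1. The 10 arrays share the structure that set wild-type arrays 4 and 5 apart, and the genes named as closest were picked as the highest of all coefficients.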

How the data were processed

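The authors deposited 1 log2 expression value per probe set and array, made by RMA with Affymetrix Expression Console per the submitters' processing notes; no version and no build is given in the sources used here. RMA normalizes quantiles across arrays, so differences are relative to the bulk of probe sets. Of 1256831 probe sets 318760 had 1 gene symbol in the platform annotation; 4227 older symbols were updated through the RefSeq gene table (GRCm38.p6). Array medians lay between 4.95 and 5.03, and the number of arrays limits precision. Gene levels and probe sets were tested in R version 4.3.3 using limma's lmFit and eBayes (version 3.58.1), without covariates, after a check on simulated data. Levels over all probe sets of a gene were compared by an exact two-sided permutation test, unadjusted. It used 252 splits of the 10 arrays, and fewer where arrays were left out. P-values measure the spread between arrays, which may be partly technical.

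The genes and lists were chosen with earlier results of these data known. The text names the 8 genes, their probe set of smallest p, others at the ends of a range, the 3 genes of smallest p of each pathway list, Klk8, the 3 genes closest to each and the 2 marker genes of smallest p. Same-numbered arrays were not treated as pairs in the main fit, and the labels do not say what a shared number stands for. Their deviations from the genotype means correlated at 0.082 for number 2 and at 0.24 to 0.412 for the others. The mean was 0.256, against -0.064 between arrays of different numbers. The second mean largely follows from the first, because genotype means had been subtracted. Alternatives tried were 2 normalizations, other filters, probe set summaries and priors, array weights, the replicate number as a block, and arrays left out.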

Additional observations from a re-analysis of the deposited data

Results flagged for a closer look

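In 1 of 32 groups of 5 arrays checked, 1 array lay far from the other 4. The mean of the 3 Crh probe sets was 4.70 on wild-type array 5, against 5.25 to 5.46 on the other wild-type arrays. Chance gives such a gap in about 1 of 20 groups. The same array had the lowest wild-type value at Crh probe sets 5189420 (6.71) and 5184094 (3.09), and the cause was not tested.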

How the results depend on the processing

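No gene of the system and no probe set of it passed under any of the 22 gene-level and 19 probe-set alternatives. The differences of Ucn3 (-0.54 to -0.22), Adcyap1 (-0.40 to -0.16), Crhbp (0.11 to 0.25) and Crhr1 (-0.11 to -0.01) kept their sign in all alternatives that gave a value; Ucn3 had too few probe sets under the stricter filter. Near 0 signs turned. The Ucn gene level was 0.01 with each array centred on its median, 0.04 with array weights, 0.18 with the median and 0.03 with median polish over probe sets, 0.07 without wild-type arrays 4 and 5, 0.06 without arrays 4 and 5 of both genotypes, and -0.03 to 0.04 with 1 array left out. The Crhr2 gene level was 0.03 with the median and with median polish. The Adcyap1r1 gene level was -0.01 after quantile normalization again, 0.00 with array weights, -0.05 and -0.02 without those arrays, and -0.02 to 0.03 with 1 array left out.

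Over all probe sets of a gene, the median gave 0.14 for Crh, 0.18 for Ucn and 0.10 for Crhr2. Ucn was 0.01 with arrays centred, 0.07 and 0.06 without those arrays. Adcyap1r1 was -0.01 after quantile normalization, -0.05 and -0.02 without those arrays. With 1 array left out the ranges were -0.15 to 0.04 for Crh, -0.03 to 0.04 for Ucn, -0.02 to 0.03 for Adcyap1r1 and -0.25 to -0.16 for Ucn3, which had an exact permutation p of 0.0476 without wild-type array 2 or 4. Crh was -0.19 without wild-type arrays 4 and 5 (exact permutation p = 0.0357). For Ucn3 and Crh these p-values were unadjusted, and each was the smallest of 16 alternatives for its gene. The count of all genes that passed, 4, was 2 with at least 1 probe set per gene and without arrays 4 and 5 of both genotypes, and 2 to 6 with 1 array left out. The causes were not tested, except that the last of these fits have fewer arrays.

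With the replicate number as a block 3 genes passed in all and none of the system; Ucn3 stood at -0.37 (adjusted p = 0.273) and Adcyap1 at -0.25 (0.36). Of 5 wild-type arrays 3 correlated best with the knockout array of their own number. The mean correlation was 0.256 for the same number and -0.064 for other numbers, the latter largely fixed by the former. Ucn3, Adcyap1 and Crh probe set 5189420 were lower in the knockout array of the same number in 5 of 5 cases. Crhr1 and Crhr2 were lower in 3 of 5, and Ucn, Crhbp and Adcyap1r1 in 1 of 5. The rest were not all higher. At the rounded values counted, Ucn was equal for numbers 1 and 3 and Crhr2 for number 1. The share of all genes lower in 5 of 5 cases was not computed, so these counts are a description only. The labels do not say what a shared number stands for.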

Other observations

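Markers of other cell types, read beside the stress peptide genes, held no gene that passed (limma). Of 14 measured oligodendrocyte markers 14 were lower in the knockout (5 at an unadjusted p under 0.05, against 4.14% of all genes), with a median of -0.25, and their centred mean ran from -0.34 to 0.43 over the wild-type arrays and from -0.35 to -0.02 over the knockout arrays. Fa2h, which makes hydroxylated myelin lipids, differed by -0.33 and Cldn11, a tight junction gene of myelin, by -0.28. Of 14 striatal and intercalated cell markers 13 were lower, with a median of -0.16, among them the enkephalin gene Penk at -0.32 and Rasd2 at -0.23. Choroid plexus markers had a median of -0.31, with Folr1 at -0.33 and Aqp1 at -0.17.

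Of 10 astrocyte markers 7 were lower and 3 higher, with a median of -0.03 (Slc1a3 0.16, Fgfr3 0.08). All 9 measured microglia markers had lower means, with a median of -0.05 (Cx3cr1 -0.14, C1qb -0.15), and of 8 vessel and blood markers 6 did, also with a median of -0.05 (Acta2 -0.14, Slco1a4 0.14). The part of these lists in the values of the stress peptide genes was not tested.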
